A study of Caenorhabditis elegans with 11 samples.

Results

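Tryptophan benzyl ester-betaxanthin, a yellow betalain pigment in which the carboxyl group of tryptophan carries a benzyl ester, was compared with water in tumoral Caenorhabditis elegans. The 5 arrays described here, chosen by their labelled treatment, are 3 of animals given the benzyl ester and 2 of animals given water, out of 11 arrays in the series. The other 6 arrays are of animals given the tryptophan methyl ester-betaxanthin (3) or tryptophan-betaxanthin (3), and they entered the model only to estimate the spread and for the comparison of the structures. Every group was of strain JK1466, in which the gld-1 allele q485 is balanced by marker mutations in dpy-5 and unc-13, and every group, water included, was fed E. coli HT115 carrying a gld-1 RNAi plasmid. The compounds were given at 25 µM for 48 h from an early larval stage. RNA came from whole animals, so the signals join gonad, intestine, hypodermis, muscle and nervous tissue.

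In C. elegans the RNA-binding protein GLD-1 moves germ cells from mitosis into meiosis, and when it is lost female germ cells return to mitosis and fill the gonad with a germline tumour. The worm handles foreign small molecules largely in the intestine, where cytochromes P450 oxidise them, short-chain dehydrogenases reduce or oxidise them, and UDP-glucuronosyltransferases and glutathione S-transferases conjugate them. It breaks down propionate by a vitamin B12-dependent route and, where B12 is short or propionate abundant, by a shunt of beta-oxidation-like steps that the nuclear hormone receptors NHR-10 and NHR-68 switch on.

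All arrays gave similar overall signals, with array medians between 2.18 and 2.24 on the log2 scale. The water arrays resembled each other more (Pearson correlation 0.997 over the tested probe sets) than the benzyl ester arrays did. The first and second benzyl ester arrays correlated at 0.991, and the third stood apart from both, at 0.973 and 0.977. No water array of the third trial was analysed here, so against water, trial and treatment cannot be told apart for that array. Its deviations from the group means correlated at 0.742 with those of the third methyl ester array. With the third tryptophan-betaxanthin array they correlated at 0.472. The median standard deviation of a probe set was 0.169 among the benzyl ester arrays (n = 3) and 0.0749 among the water arrays (n = 2). The third array was the highest benzyl ester array for 55 and the lowest for 28 of the 121 probe sets called higher.

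Of 26761 probe sets tested, 151 differed between the benzyl ester and water at an adjusted p under 0.05 (limma, Benjamini-Hochberg over all tested probe sets), and these are referred to as called. The benzyl ester animals were higher for 121 of them (0.452% of those tested) and lower for 30 (0.112%). For all 121 and all 30 the groups did not overlap, which a call itself favours. The share of such probe sets among all tested is not given here. The difference reached at least 2-fold for 68 of the higher and 19 of the lower probe sets, and the median difference was 1.08 and -1.16 on the log2 scale, against 0.0062 over all tested probe sets. The count rests on the arrays that share the estimate of the spread. Fitted on the 5 benzyl ester and water arrays alone, limma called 0 probe sets (smallest adjusted p 0.0542). At an unadjusted p under 0.05 there were 3753, among them all 151. Every difference is the same in both fits, so a sign could not change and only the estimate of the spread did. Without the third benzyl ester array 155 were called, but only 106 of the 151 were among them. Far fewer were called without either water array, which leaves a lone water array.

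**Figure D1:**
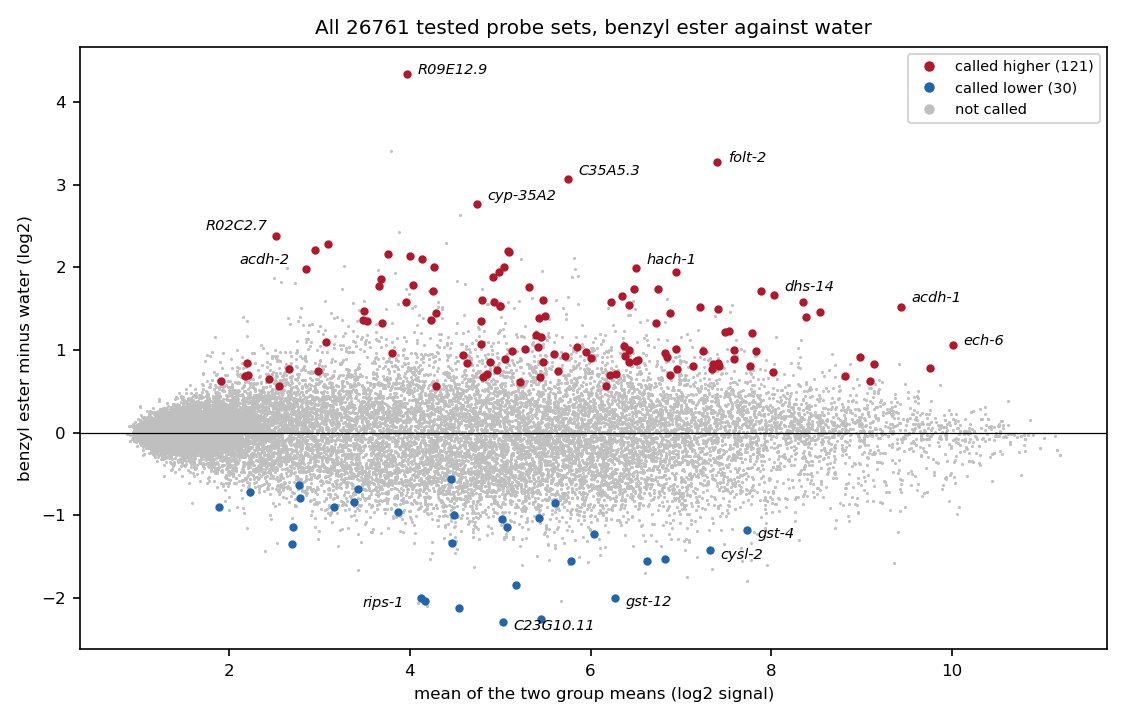
Difference in log2 signal, benzyl ester minus water (vertical axis), against the mean of both group means (horizontal axis, log2 signal) for the 26761 tested probe sets, with 121 called higher in red, 30 called lower in blue and the rest in grey. Nearly all called probe sets lie above the median signal of 2.28, with folt-2 at 3.27 and C23G10.11 at -2.29.

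Genes of propionate breakdown were among those that rose. Of the 16 genes measured in a list of the propionate and vitamin B12 routes, 4 rose, none fell and 12 were not called, with a list median of 0.22 against 0.0064 over all genes. As background for the list counts here and below, 0.452% of all tested probe sets were called higher and 0.112% lower. The 4 genes that rose were 3 enzymes of the shunt and its activating receptor. The gene nhr-68 had signals of 6.05, 6.25 and 6.32 in benzyl ester animals, against 4.71 and 4.88 in water. Its difference of 1.41 ± 0.12 (standard error) was 2.66-fold, with an adjusted p of 0.00143 in limma. The first enzyme, the acyl-CoA dehydrogenase acdh-1, is widely used in the worm as a reporter of low vitamin B12. It gave 9.90, 10.33 and 10.35 in benzyl ester animals, against 8.75 and 8.58 in water, a difference of 1.53 ± 0.15 (adjusted p = 0.00234). The benzyl ester arrays lay above both water arrays for both genes, by more than the spread within either group.

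The enoyl-CoA hydratase ech-6, the next step, gave 10.47, 10.68 and 10.48 in benzyl ester animals and 9.49 and 9.46 in water (difference 1.07 ± 0.11, adjusted p = 0.003). The hydrolase hach-1, which follows it, gave 7.37, 7.73 and 7.39 in benzyl ester animals and 5.58 and 5.45 in water, a 3.97-fold difference (adjusted p = 0.00159). The last enzyme of the shunt, alh-8, was not called. It gave 6.41, 7.37 and 8.04 in benzyl ester animals and 6.16 and 6.49 in water, so its first benzyl ester array lay between the water arrays (adjusted p = 0.30). The partner receptor nhr-10 differed by 0.33 (adjusted p = 0.22) and nhr-114, a receptor linked to methionine and B12 supply in the germline, by 0.59 (adjusted p = 0.18), and neither was called.

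Related enzymes outside that list also rose. The acyl-CoA dehydrogenase acdh-2 gave 3.73, 3.98 and 3.82 in benzyl ester animals and 2.02 and 1.70 in water, a 3.96-fold difference (adjusted p = 0.000348). The gene dhgd-1, a D-2-hydroxyglutarate dehydrogenase named here after its values were seen, gave 8.61, 8.79 and 8.82 in benzyl ester animals and 6.95 and 7.09 in water (difference 1.72, adjusted p = 0.00143). In the wider list of beta-oxidation and acyl-CoA enzymes, 6 of 67 rose, none fell and the median was 0.21. Besides acdh-1, acdh-2 and ech-6 they were the mitochondrial thiolase acaa-2 (0.91, adjusted p = 0.0301), the peroxisomal thiolase daf-22, known for making ascaroside pheromones (0.77, adjusted p = 0.0336), and the acyl-CoA oxidase acox-1.4 (0.85). The call of daf-22 was lost when arrays were centred on their medians.

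The folate transporter gene folt-2 had the second largest called rise of the comparison. Its signal was 9.06, 9.23 and 8.83 in benzyl ester animals, against 5.95 and 5.59 in water. The difference of 3.27 ± 0.31, or 9.66-fold, had an adjusted p of 0.0019. The other members of the family, folt-1 and folt-3, differed by 0.36 and 0.58 and were not called. In the list of the folate and methionine cycles, folt-2 was the only 1 of 26 called, with a list median of 0.11. The purine synthesis enzyme atic-1, which uses a folate cofactor, came next by p (0.67, adjusted p = 0.0691), followed by cth-1, a cystathionine gamma-lyase (0.74, adjusted p = 0.15).

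**Figure D2:**
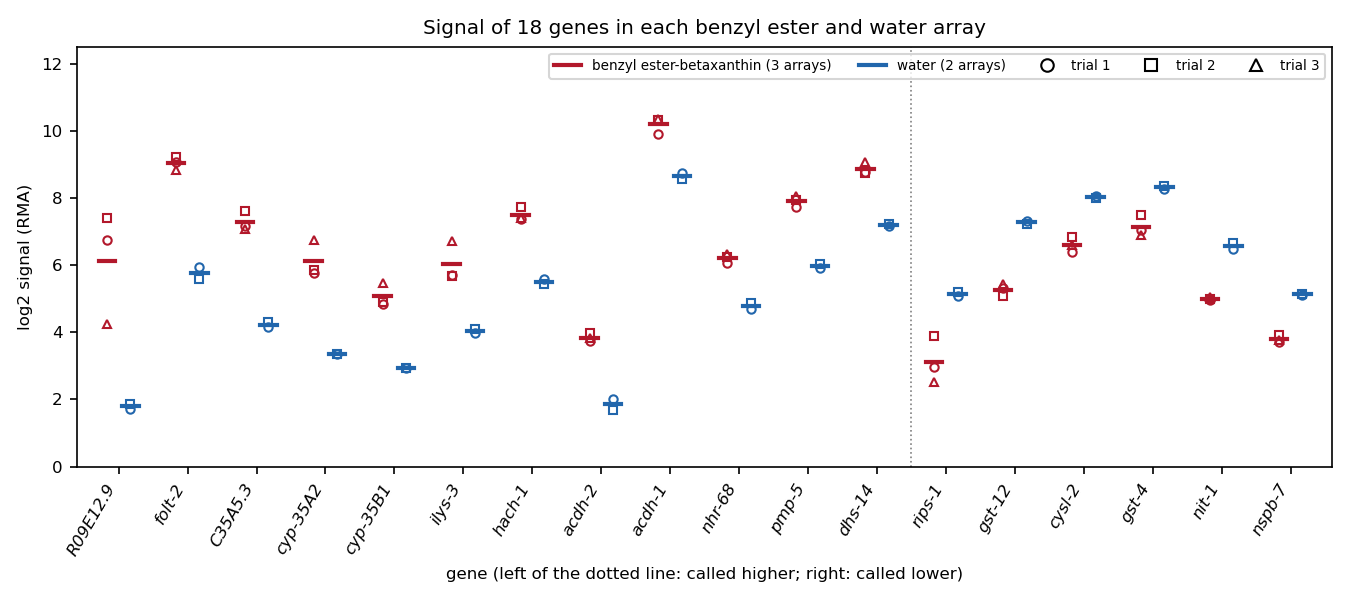
Log2 signal of 18 genes (vertical axis) in each benzyl ester array (red, left of each pair) and each water array (blue, right), with symbols for the trials and bars for the group means. The groups are apart for every gene shown, and R09E12.9 has the widest spread among the benzyl ester arrays, from 4.25 to 7.41.

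Several families of detoxification enzymes held called genes. Cytochromes P450 rose for 6 of 73 genes and fell for none (median 0.22), against 0.452% and 0.112% of all tested probe sets. The gene cyp-35A2, of a subfamily known for its response to xenobiotics, gave 5.78, 5.84 and 6.75 in benzyl ester animals, against 3.37 and 3.36 in water. That was a 6.79-fold difference (adjusted p = 0.00637). Its relative cyp-35B1 gave 4.84, 4.90 and 5.46 in benzyl ester animals and 2.94 and 2.93 in water (4.39-fold, adjusted p = 0.0147). For both genes the third benzyl ester array was the highest, and both lay well above water without it. The others were cyp-35C1 (difference 1.36), cyp-13B1 (1.36), cyp-33A1 (0.90) and cyp-34A10 (0.69). Only 3 of the 10 measured cyp-35 genes were called, and the median of the 10 was 0.18.

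UDP-glucuronosyltransferases rose for 3 of 67 genes and fell for none, with a median of 0.30. They were ugt-53 (difference 1.78, adjusted p = 0.0322), ugt-48 (1.35, adjusted p = 0.00411) and ugt-2 (0.75, adjusted p = 0.0209). Short-chain dehydrogenases rose for 3 of 34 genes and fell for 1. The gene dhs-14 gave 8.76, 8.75 and 9.08 in benzyl ester animals and 7.17 and 7.22 in water, a 3.18-fold difference. It was joined by dhs-27 (1.16) and dhs-5 (0.84), whereas dhs-8 fell by 1.14 on the log2 scale. The only ABC transporter called among 54 was pmp-5, of the peroxisomal membrane protein family, at 7.75, 7.94 and 8.05 in benzyl ester animals and 5.91 and 6.03 in water (adjusted p = 0.00462).

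Of 49 glutathione S-transferases 3 fell and none rose, while the median of the family was 0.13. The family had no single direction, with 13 higher and 10 lower at an unadjusted p under 0.05. The shares over all tested probe sets were 8.21% and 7.07%. With array weights limma called 8 of the family higher and 6 lower, against 945 and 592 of all 26761 tested probe sets. The gene gst-12 gave 5.31, 5.08 and 5.44 in benzyl ester animals, against 7.32 and 7.23 in water, a 4.01-fold lower signal (adjusted p = 0.0158). The gene gst-4, the usual reporter of the oxidative stress factor SKN-1, gave 7.05, 7.48 and 6.90 in benzyl ester animals and 8.27 and 8.37 in water, a 2.26-fold lower signal (adjusted p = 0.0301). The remaining one, gst-30, was low in all arrays, at 1.55, 1.23 and 1.52 in benzyl ester animals and 2.29 and 2.39 in water. Of 25 antioxidant enzymes and SKN-1 genes none was called, and gcs-1, which starts glutathione synthesis, differed by -0.44 (adjusted p = 0.147). The metallothionein mtl-2 gave 4.31, 4.59 and 7.61 in benzyl ester animals and 2.15 and 2.03 in water. Its groups did not overlap, but the third array lay far above the others and the gene was not called (adjusted p = 0.107).

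Of the 15 genes with the largest called falls, some code for enzymes of known type. The cysteine synthase-like gene cysl-2, a target of the hypoxia factor HIF-1, gave 6.41, 6.83 and 6.59 in benzyl ester animals, against 8.07 and 8.0 in water (difference -1.42 ± 0.17, adjusted p = 0.00717). It was the only 1 of 16 genes called in the list of the hypoxia and hydrogen sulfide response, whose median was -0.09. Its regulator rhy-1 differed by -0.63 and was not called. The methyltransferase gene rips-1 was not in that list. It gave 2.97, 3.88 and 2.53 in benzyl ester animals and 5.07 and 5.19 in water. Its signal was 4.02-fold lower (adjusted p = 0.03). The nitrilase nit-1 gave 4.96, 4.99 and 5.06 in benzyl ester animals and 6.47 and 6.65 in water (adjusted p = 0.00659).

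The remaining large falls were of genes of little known function. The lowest called difference was that of C23G10.11, at 3.18, 3.77 and 4.71 in benzyl ester animals and 6.24 and 6.10 in water (-2.29 ± 0.36). It was followed by F44E7.5 (-2.26), F01D5.1 (-2.12), W06H8.2 (-2.04), F56D5.3 (-1.84), T22B7.3 (-1.54) and xxxp-1 (-1.35). The gene dct-7, named from a screen for genes under DAF-16 that affect germline tumours, gave 5.60, 5.73 and 6.19 in benzyl ester animals and 7.40 in both water arrays (adjusted p = 0.0158). It was the only 1 called of 16 dct genes, a family counted after the values were seen. The nematode-specific peptide genes nspb-7 (-1.34, adjusted p = 0.0011) and nspe-4 (-1.23, adjusted p = 0.00208) also fell. In all, 3 of 19 genes of the nspb and nspe families were called, each of them lower, again counted after the values were seen.

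Among the genes that rose most, R09E12.9 led at 6.74, 7.41 and 4.25 in benzyl ester animals, against 1.72 and 1.87 in water. The difference of 4.34 ± 0.73 was 20.2-fold (adjusted p = 0.0373), with the third array well below the other two. C35A5.3 gave 7.17, 7.60 and 7.09 in benzyl ester animals and 4.15 and 4.29 in water (8.38-fold, adjusted p = 0.000305). The groups of both genes were widely apart. Other rises without a known role to give were R02C2.7 (2.38), C09B8.4 (2.22), K08D8.3 (2.19), T07D3.9 (2.17), F32D8.11 (2.10), Y38H6C.23 (2.01) and K03D3.2 (1.95), together with vmo-1 (2.29).

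The signal of far-3, which codes for a carrier of fatty acids and retinol, was 5.75, 6.34 and 5.49 in benzyl ester animals and 3.92 and 4.03 in water (1.88 ± 0.25, adjusted p = 0.0119). The cuticle collagen col-54 rose by 2.20 ± 0.32 (adjusted p = 0.0181). col-54 was the only 1 of 175 cuticle collagens called, although 36 were higher and 18 lower at an unadjusted p under 0.05. The shares over all tested probe sets were 8.21% and 7.07%. With array weights limma called 19 of the collagens higher and 8 lower, against 945 and 592 of all 26761 tested probe sets. With the trial number as a block it called 7 higher and 1 lower, against 269 and 74 of all. The peptidyl-prolyl isomerase fkb-7, of the family that binds the drug FK506, gave 4.57, 4.35 and 4.90 in benzyl ester animals and 2.76 and 2.74 in water. With fkb-4 (0.96) and fkb-5 (0.85), 3 of 8 fkb genes were higher, a family counted after the values were seen. The calls of fkb-4 and fkb-5 were lost with an intensity trend and a robust prior.

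Immune effectors and regulators gave a few calls. In a list of innate immunity genes, 5 of 127 rose and none fell, with a median of 0.10. Among all tested probe sets 0.452% were called higher and 0.112% lower. The invertebrate lysozyme ilys-3 gave 5.72, 5.68 and 6.72 in benzyl ester animals and 3.98 and 4.09 in water (adjusted p = 0.0414). The lysozyme lys-6 (0.70), the caenacin cnc-3, an antimicrobial peptide (1.65), and the saposin-like spp-30 (2.14-fold) were the others of that kind. The fifth, hrg-10, is a haem-responsive gene that entered the list by its name, at 7.10, 7.40 and 7.08 in benzyl ester animals and 5.52 and 5.78 in water.

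Of 280 nuclear hormone receptors, nhr-68 and nhr-211 (0.94) rose and nhr-120 fell (-0.85), with a median of 0.18. Among all tested probe sets 0.452% were called higher and 0.112% lower. At an unadjusted p under 0.05, 62 of the receptors were higher and 2 lower. With array weights limma called 25 of them higher and 1 lower, against 945 and 592 of all 26761 tested probe sets. With the trial number as a block it called 5 higher and 1 lower, against 269 and 74 of all. Among 336 F-box proteins, which pick substrates for ubiquitin ligases, fbxa-72 (1.47), fbxa-151 (0.98), fbxa-78 (0.88) and fbxa-158 (0.74) rose and none fell, while the family median was -0.01. Single calls came from the C-type lectin clec-225 (0.95; 240 measured), the aspartic protease asp-13 (0.79; 120 proteases), the sugar transporter swt-3 (0.91) and the amino acid transporter slc-36.4 (0.64). Of 1314 chemoreceptors, 108 neuropeptides, 40 insulin-like peptides and 75 cytosolic ribosomal proteins none was called by limma. At an unadjusted p under 0.05 the chemoreceptors had 32 higher and 20 lower, and the neuropeptides 21 and 1. The insulin-like peptides had 4 and 5, and the ribosomal proteins 0 and 0. Over all tested probe sets 8.21% were higher and 7.07% lower at that threshold.

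The study looked at genes of TOR signalling and of cell death. None of 25 TOR genes and none of 29 cell death genes was called, and their medians were -0.16 and -0.10. At an unadjusted p under 0.05, 3 TOR genes were higher and 4 lower, and 2 cell death genes were higher and 3 lower. Over all tested probe sets 8.21% were higher and 7.07% lower at that threshold. The gene rict-1, the Rictor subunit of TOR complex 2, gave 3.64 in each benzyl ester array and 3.98 and 4.14 in water, a difference of -0.42 with a 95% interval from -0.73 to -0.10 (adjusted p = 0.217). The gene daf-15, the Raptor subunit of TOR complex 1, gave 5.34, 5.24 and 5.39 in benzyl ester animals and 5.52 and 5.50 in water. Its difference of -0.19 had an interval from -0.38 to 0.01 (adjusted p = 0.345). Both genes were lower in every benzyl ester array than in either water array, by small amounts.

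The shared subunit mlst-8 differed by -0.34 (adjusted p = 0.36) and sinh-1, of TOR complex 2, by -0.29 (adjusted p = 0.453). The smallest p-values of the list were those of par-4, the worm LKB1 kinase (-0.69, adjusted p = 0.0891), and rsks-1, the S6 kinase (-0.44, adjusted p = 0.17). The executioner caspase ced-3 gave 3.67, 2.85 and 3.40 in benzyl ester animals and 4.12 and 4.13 in water (-0.82, adjusted p = 0.16). The caspase csp-1 was low in all arrays, between 1.34 and 1.64 in benzyl ester animals and at 1.49 and 1.45 in water, with a difference of 0.01 (95% interval -0.24 to 0.27). These calls changed with the fit. With array weights limma called ced-3 lower (-0.91, adjusted p = 0.0268), as the only 1 of the 29 cell death genes. In that fit 2 of the 25 TOR genes were called lower, par-4 (adjusted p = 0.0172) among them. It called 592 of all 26761 tested probe sets lower. With the third trial left out par-4 was called (adjusted p = 0.0428) and no other gene of these lists, and it was also called without the first benzyl ester array (adjusted p = 0.0376) or the third methyl ester array (adjusted p = 0.0402).

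The RNAi target gld-1 gave 6.44, 5.50 and 6.27 in benzyl ester animals, against 7.33 and 7.43 in water. All groups carried the same knockdown, so this is no check of the labels. The difference of -1.31 had a 95% interval from -2.16 to -0.46 and was not called (adjusted p = 0.167). It was called with array weights (-1.44, adjusted p = 0.0194) and when the third methyl ester array was dropped (adjusted p = 0.0432). With all arrays of the third trial left out it was -1.41, again called (adjusted p = 0.0288).

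The germline lists had medians below 0, and no member of them was called by limma in the 4-group model. The median difference was -0.48 for 24 genes of germline stem cell fate, -0.81 for 18 of germ granules, -0.66 for 26 of meiosis, -0.56 for 39 of DNA replication and mitosis, -1.20 for 26 of the oocyte and eggshell and -0.68 for 82 of sperm. At an unadjusted p under 0.05, 8, 14, 10, 25, 19 and 26 genes of these lists were lower, in that order, and none was higher. Over all tested probe sets 7.07% were lower and 8.21% higher at that threshold. Fewer germ cells and less RNA per cell cannot be told apart in whole animals. The median over all genes was 0.0064. Cyclic loess and median centring moved the median over all tested probe sets by -0.0083 and -0.0451. Median centring shifts every difference by the same amount, too little to reverse any of the 6 medians. Their unchanged signs under it are no check. Cyclic loess can move lists unequally, and with it the 6 medians were -0.43, -0.80, -0.64, -0.57, -1.22 and -0.74, in the order above.

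Examples with the smallest p-values are cyb-3, a mitotic cyclin, at 6.63, 6.16 and 6.72 in benzyl ester animals and 7.48 and 7.42 in water (-0.95, adjusted p = 0.0791), and puf-5, an oocyte RNA-binding protein, at 5.19, 4.72 and 4.86 against 6.27 and 6.31 in water (-1.36, adjusted p = 0.134). The replicative helicase subunit mcm-2 (-0.76), the synaptonemal complex protein syp-4 (-1.21), the P granule protein pgl-3 (-1.03) and the sperm membrane channel spe-41 (-1.12) had adjusted p-values of 0.117 to 0.16. For all of these genes, picked by their p-values, the benzyl ester arrays lay below both water arrays.

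The size of the germline difference moved with the third benzyl ester array. The mean signal of the oocyte and eggshell list was 6.13, 5.47 and 5.06 in benzyl ester animals and 6.67 in both water arrays, and that of the sperm list was 5.77, 5.78 and 4.94 in benzyl ester animals and 6.16 in both. Without the third array the medians were -0.90 for oocyte and eggshell, -0.35 for sperm, -0.48 for meiosis and -0.70 for germ granules, and that of DNA replication and mitosis stayed at -0.55. With the third trial left out for every compound, limma called 8 of the 26 oocyte, 18 of the 82 sperm, 7 of the 39 replication, 5 of the 24 stem cell fate, 3 of the 18 germ granule and 3 of the 26 meiosis genes lower, and none higher. With array weights 10, 6, 10, 5, 6 and 4 genes of these lists were called lower, in that order. With the trial number as a block 1, 2, 1, 0, 0 and 0 were, again with none higher in either fit. Of all 26761 tested probe sets, the fit without the third trial called 569 lower, that with array weights 592 and that with the block 74. Called higher were 886, 945 and 269.

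The vitellogenins, the yolk proteins that the adult intestine makes for oocytes, showed that array most clearly. The 6 genes averaged 8.86, 8.80 and 6.24 in benzyl ester animals and 9.24 and 9.26 in water. The gene vit-5 gave 9.34, 9.36 and 6.99 in benzyl ester animals and 10.12 and 10.16 in water, and vit-2 gave 10.13, 10.01 and 8.75 against 10.49 and 10.56 in water. Neither was called (adjusted p = 0.342 and 0.337), and the list median was -1.31 with the third array and -0.42 without it. With the third trial left out for every compound, limma called 2 of the 6 lower and none higher. That fit called 569 of all 26761 tested probe sets lower. With array weights or with the trial number as a block, no vitellogenin was called. Stage markers moved the other way in the same array. The 51 moulting genes averaged 4.58, 4.58 and 5.27 in benzyl ester animals and 4.34 and 4.43 in water (median 0.38, or 0.15 without the third array), and none was called. At an unadjusted p under 0.05, 12 of them were higher and 2 lower, against 8.21% and 7.07% of all tested probe sets. The part of developmental stage in the results was not tested.

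Markers of other tissues gave the background for these groups. The 10 body wall muscle markers had a median of 0.04, the 10 neuronal markers 0.22, the 9 intestinal markers 0.17 and the 10 hypodermal markers 0.61 (0.21 without the third array). None of these was called. The 10 germline markers had a median of -0.82, with the list mean at 5.93, 5.36 and 5.11 in benzyl ester animals and 6.28 and 6.36 in water. Of 9 somatic gonad markers, tnt-3, a troponin T, was called (1.59, adjusted p = 0.0433), and the median was 0.06.

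**Figure D3:**
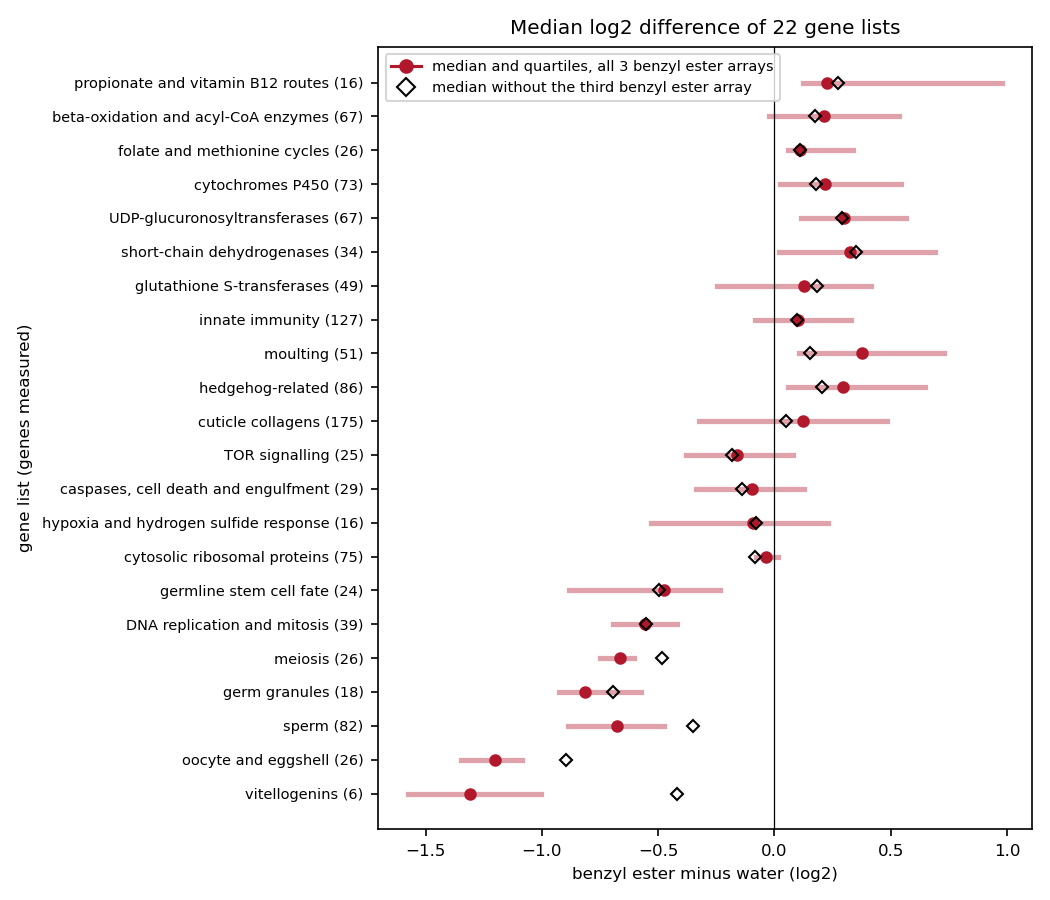
Median log2 difference, benzyl ester minus water (horizontal axis), of 22 gene lists (vertical axis, with the number of genes measured), with bars from the lower to the upper quartile of the genes and open diamonds for the median without the third benzyl ester array. The germline lists and vitellogenins lie below 0, between -0.48 and -1.31, and the vitellogenin median moves to -0.42 without that array.

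The structures were compared at the same dose and time in 2 pairs. Against tryptophan-betaxanthin, which has the free carboxyl group in place of the benzyl ester, the benzyl ester animals were higher for 561 probe sets (2.1%) and lower for 267 (0.998%), 828 in all. The largest called rises were those of R09E12.9 (4.19), cyp-35A2 (2.44), R02C2.7 (2.33), acdh-2 (2.30), C09B8.4 (2.28) and dct-8 (2.18). The largest called falls were C15C6.5 (-2.83), F44E7.5 (-2.38) and the cuticle collagens col-185 (-2.32), col-51 (-2.08), col-40 (-2.06) and col-37 (-2.03). This count, too, varied with the arrays, between 25 and 2087 when 1 of the 11 was left out, and was lowest without the first array of tryptophan-betaxanthin itself.

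Several of the rises against water did not pass the test against tryptophan-betaxanthin. The difference of acdh-1 was 0.30 (adjusted p = 0.26) and that of pmp-5 was 0.25 (adjusted p = 0.53). For folt-2 it was 1.16 (adjusted p = 0.055), with means of 9.04 in benzyl ester animals and 7.88 in tryptophan-betaxanthin animals. By contrast hach-1 differed by 0.83 (adjusted p = 0.0305) and nhr-68 by 0.64 (adjusted p = 0.0251), and benzyl ester animals had the higher signal for both. The TOR gene rict-1 was lower with the benzyl ester by 0.63 on the log2 scale (adjusted p = 0.033), and daf-15 differed by -0.04 (adjusted p = 0.829).

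Against the methyl ester, where the esters differ only in the alcohol part, 30 probe sets were higher with the benzyl ester (0.112%) and 10 lower (0.0374%). With the trial number as a block, which pairs these arrays, 63 probe sets differed. The largest called rises were folt-2 (3.28, adjusted p = 0.00139), T07D3.9 (2.34), papl-1, an acid phosphatase-like gene (2.29), acdh-2 (2.26), C09B8.4 (2.26) and C35A5.3 (2.22). The difference of R09E12.9, 4.14, was not called (adjusted p = 0.0588). The mean of folt-2 was 9.04 in benzyl ester animals and 5.76 in methyl ester animals. The propionate shunt differed too, with hach-1 at 1.75 (adjusted p = 0.00161), acdh-1 at 0.99 (adjusted p = 0.0271) and ech-6 at 0.67 (adjusted p = 0.0442), and so did pmp-5 (1.30), hrg-10 (1.56) and dhs-14 (0.93). Lower with the benzyl ester were rips-1 (-2.38), the stearoyl-CoA desaturase fat-7 (-2.07), T16G1.6 (-1.86), the arginine kinase argk-1 (-1.34), cysl-2 (-1.31) and C29F3.7 (-1.20).

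Other genes that differed from water were not called between the esters. The difference between benzyl and methyl ester was -0.56 for cyp-35A2 (95% interval -1.22 to 0.09), -0.33 for cyp-35B1 (-0.91 to 0.26), 0.01 for ilys-3 (-0.68 to 0.70), 0.10 for K03D3.2 (-0.22 to 0.42) and -0.05 for dct-7 (-0.49 to 0.38). For far-3 it was -0.83 (-1.32 to -0.34), which did not pass the adjusted threshold (adjusted p = 0.526). The oocyte and eggshell list had a median difference of -0.20, germ granules -0.03, sperm -0.01 and TOR signalling -0.02 between the esters, against -0.0019 over all genes, and none of their genes was called.

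**Figure D4:**
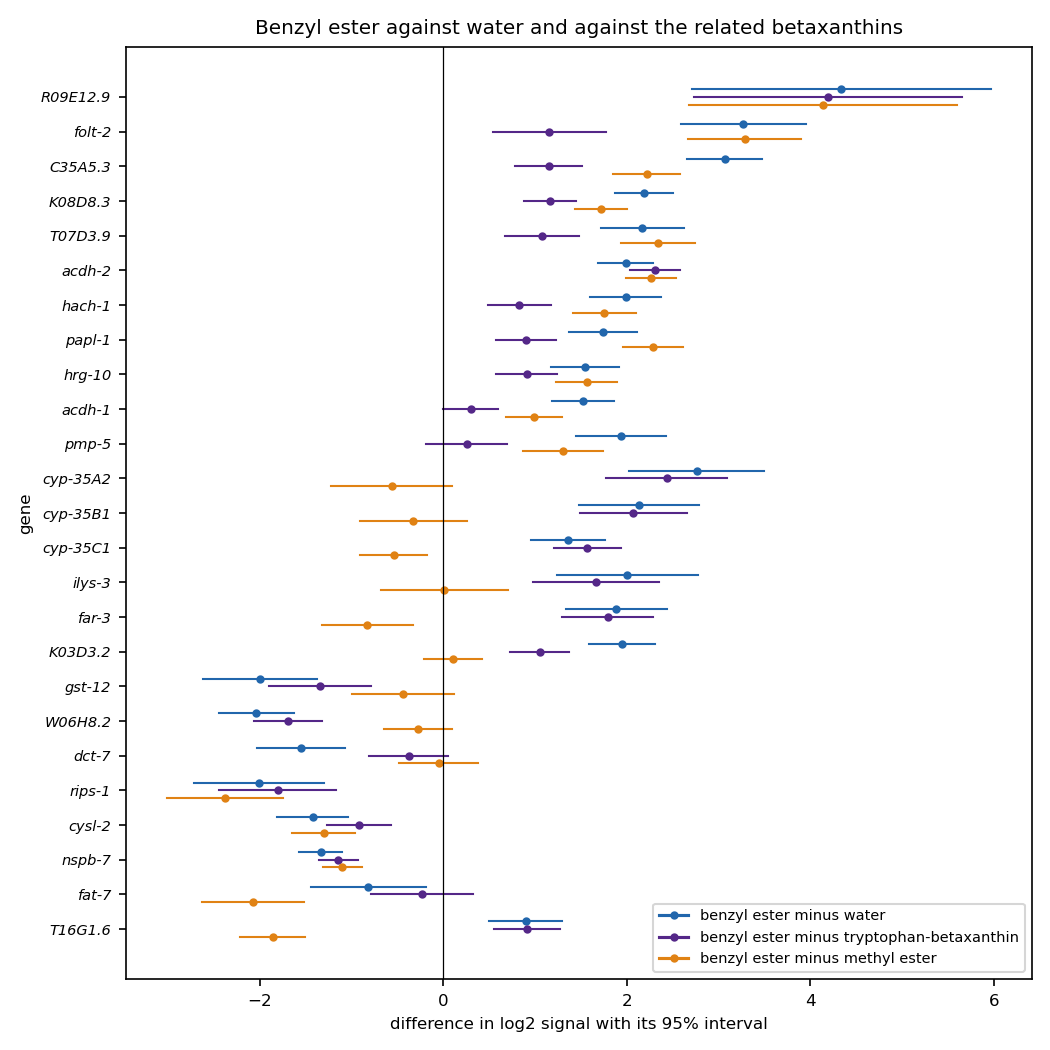
Difference in log2 signal with its 95% interval (horizontal axis) for 25 genes (vertical axis), benzyl ester minus water in blue, minus tryptophan-betaxanthin in purple and minus the methyl ester in orange. For folt-2 the differences from water and from the methyl ester are 3.27 and 3.28, and for cyp-35A2 the interval of the difference from the methyl ester, -1.22 to 0.09, includes 0.

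**Figure D5:**
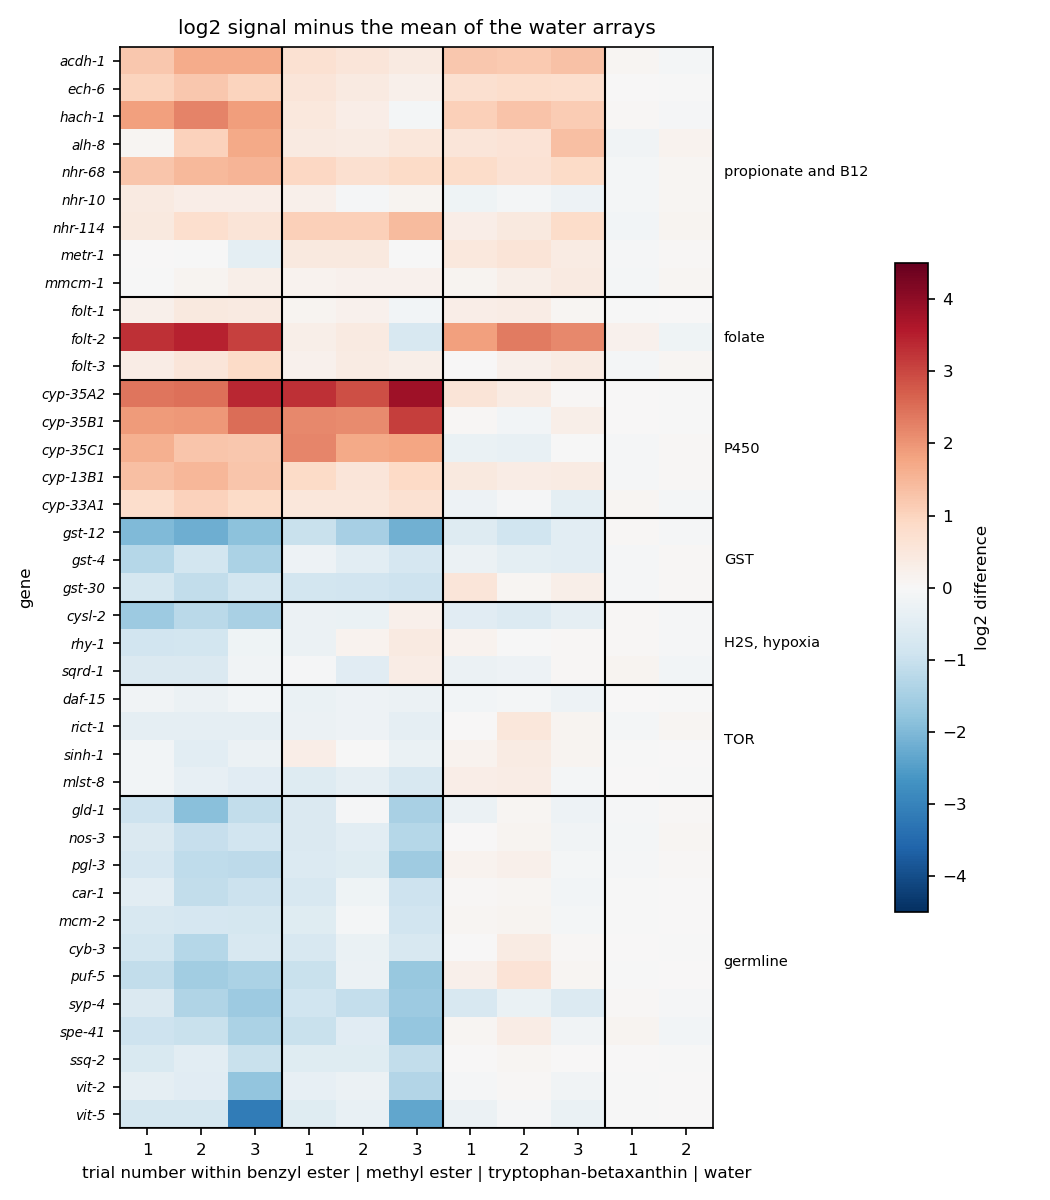
Log2 signal minus the mean of the water arrays (colour) for genes of 7 groups (rows) in each array (columns: benzyl ester, methyl ester, tryptophan-betaxanthin and water, by trial). The P450 genes are high in both esters, folt-2 is high with the benzyl ester and with tryptophan-betaxanthin, and vit-5 is lowest in the third benzyl ester array, where its signal was 6.99.

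Of the 72 called genes whose values were followed through the fits, 13 stayed called in each of the 11 fits that left out 1 array. They were folt-2, C35A5.3, K08D8.3, Y38H6C.23, hach-1, acdh-2, K03D3.2, cyp-13B1, nhr-68, papl-1 and dhgd-1, all higher with the benzyl ester, and W06H8.2 and nspb-7, both lower. Their differences from water can move only when a benzyl ester or water array is left out. They ran from 3.09 to 3.45 for folt-2 and from 1.87 to 2.05 for hach-1. The call of R09E12.9 held in 3 of the 11 fits and that of ilys-3 in 4. Called genes that neighbour each other in the genome were few. The pairs ugt-53 and folt-2, nssp-59 and asp-13, F32D8.11 and F32D8.12, and B0365.9 and clec-225 were all higher.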

How the data were processed

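RNA of whole JK1466 animals was hybridised to C. elegans Gene 1.1 ST arrays. The deposited table holds log2 signals per probe set. The submitters' processing notes name RMA and the Affymetrix Expression Console, and the study's methods name the Transcriptome Analysis Console. RMA corrects background, normalises quantiles across arrays and summarises probes, so a change of total RNA is not seen. For versions, the sources used here give none.

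Of 29317 probe sets, 26761 with a gene symbol were tested, and 2556 without one were left out. A gene with several single-gene probe sets (138 of 26128) was represented by the one with the highest mean. A 4-group model was fitted to all 11 arrays with limma 3.58.1 (lmFit, eBayes) in R 4.3.3, without the trial number, and adjusted by Benjamini-Hochberg within each comparison. The script was tested on simulated data. Arrays give no counts, so their number limits the precision. Trials are labelled as independent. The p-values rest on the spread of arrays within groups, pooled over all 4 groups and drawn by eBayes toward a common value. That spread was unequal, with a median standard deviation of 0.169 among the benzyl ester arrays and 0.0749 among the water arrays.

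The members, the 50 gene lists and the rule for naming genes were chosen with earlier results of these data known. Named are genes of the study's text, the 20 highest and 15 lowest called genes (groups apart, higher mean at or above the median signal of 2.28), up to 5 called genes per list (or the next 2 by p), and the 6 highest and 6 lowest against each related compound. Others were named after their values were seen. Same-numbered benzyl and methyl ester arrays deviated together from their group means (correlations 0.501, 0.235 and 0.742), so their comparison is also given with the trial as a block. Alternatives were the block, the compared groups alone, array weights, a robust prior with an intensity trend, median centring, cyclic loess, probe set filters, gene means, other thresholds and each array left out. Leaving out the third trial, or the third benzyl ester array for the gene lists, was chosen after seeing the data.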

Additional observations from a re-analysis of the deposited data

How the results depend on the processing

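The count of 151 probe sets against water (121 higher, 30 lower) stayed within 1.5 times, from 104 to 152, with an intensity trend and robust prior, cyclic loess, median centring, the brighter probe sets, all probe sets and gene means. Pairing the arrays with the trial number as a block gave 343 (269 higher, 74 lower), and 148 of the 151 stayed called. It gave 3011 against tryptophan-betaxanthin and 63 against the methyl ester. Deviations of same-numbered benzyl ester and water arrays correlated at 0.134 and -0.00795, and those of benzyl ester and tryptophan-betaxanthin arrays at 0.272, -0.0609 and 0.472. Array weights gave 1537 (945 higher, 592 lower) and 2491 against tryptophan-betaxanthin. The compared groups alone gave 0 (0 higher, 0 lower) and, against the methyl ester, 1. Without the third trial the counts were 1455 (886 higher, 569 lower), 2930 against tryptophan-betaxanthin and 123 against the methyl ester, with all 151 still called. The intensity trend gave 295 against tryptophan-betaxanthin. An adjusted p of 0.01 gave 45 (40 and 5), 33 against tryptophan-betaxanthin and 21 against the methyl ester; one of 0.1 gave 338 (260 and 78) and 2197 against tryptophan-betaxanthin. An unadjusted p of 0.05 gave 4089 (2198 and 1891), 5378 and 1159.

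With 1 array left out, the counts ran from 16 to 726 against water (14 to 494 higher, 2 to 232 lower), from 25 to 2087 against tryptophan-betaxanthin and from 24 to 54 against the methyl ester. Against water they were 16 and 24 without the first or second water array, assuming that the lone one varies like the other groups. They were 61 without the second benzyl ester array, 77, 71 and 78 without each tryptophan-betaxanthin array, and 97, 227 and 726 without the methyl ester arrays in trial order. Leaving out a methyl ester or tryptophan-betaxanthin array cannot change a difference from water, only its standard error. In the fits without a benzyl ester or water array none of the 151 changed sign. That was fixed in advance, because the benzyl ester and water arrays did not overlap for any of them. The causes were not tested.

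Of 72 called genes followed, all kept the call with the block and array weights, 62 with cyclic loess, 67 with median centring and 58 with the intensity trend. Of uncalled values, 2 changed sign. For csp-1 the difference was -0.0215 with array weights, -0.0024 with cyclic loess, -0.0327 with median centring and -0.0654 without the third trial, and it ran from -0.0654 to 0.0824 with 1 array left out. For C15C6.5 against water it was 0.40 and ran from -0.22 to 1.04 with 1 array left out.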

Other observations

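A few groups lay outside the comparisons above. Of 86 hedgehog-related genes, whose products are linked to the cuticle, none was called, with a median of 0.30. At an unadjusted p under 0.05 limma gave 26 higher and 2 lower, against 8.21% and 7.07% of all tested probe sets. With the trial number as a block limma called 4 of them higher, with array weights 13 and with the third trial left out 14. None was called lower in any of these fits. Of all 26761 tested probe sets the same fits called 269, 945 and 886 higher and 74, 592 and 569 lower. The ground-like gene grl-15 gave 7.32, 7.72 and 7.92 in benzyl ester animals and 5.95 and 6.11 in water (adjusted p = 0.0596), and the warthog gene wrt-10 gave 6.38, 6.93 and 7.54 against 5.44 in both water arrays (adjusted p = 0.0691). Of 35 histone genes none was called (1 higher and 5 lower at an unadjusted p under 0.05), with his-48 at 8.09, 8.10 and 8.2 in benzyl ester animals and 9.24 and 9.34 in water. Of 19 genes of tryptophan metabolism, 26 of autophagy, 41 of the respiratory chain and 4 sirtuins none was called, and their medians were 0.09, 0.10, 0.06 and -0.10. At an unadjusted p under 0.05 these lists had 3, 0, 2 and 0 genes higher and 1, 0, 2 and 0 lower.

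With 2 water arrays and no water array of the third trial, a miss of the threshold does not show that a gene was unchanged. The background level of the arrays was not measured, and the signals of csp-1 and of gst-30 in benzyl ester animals lay under the median of the tested probe sets, 2.28.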
